A study of Mus musculus with 2 samples.

Results

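Transcripts of 8 transcription factor genes of the ureteric mesenchyme were examined in mouse ureters of stage E16.5 (embryonic days). The genes are Tbx18, Tbx2, Tbx3 and Tbx20 of the T-box family, Tshz2 and Tshz3 of the teashirt family, Sox9 and Tcf21. They were chosen by name. The arrays hold 11 probes for them, among 29982 genes with values. In 2 dual-colour hybridisations, RNA of Pparg-cKO ureters (genotype Pax2-cre/+; Pparg(fl/fl)) was set against RNA of control ureters (genotype Pparg(fl/?)), all on the NMRI strain. Pools of ureters from female embryos were used on array 1 and pools from male embryos on array 2, and the dyes were exchanged between the arrays. Each genotype was thus represented by 1 pool per array. The Pax2-cre line recombines in the nephric duct, the ureteric epithelium and the collecting duct system, whereas the 8 genes were grouped as regulators of the mesenchyme around the epithelium. They are not all confined to it, since Sox9 is also known from epithelial progenitors and Tbx20 best from the heart. The second allele of the controls is given only as a question mark, and the stage label of the Pparg-cKO channel states E14.5 where the titles state E16.5.

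The ureteric mesenchyme is the sheath of cells around the epithelial tube. From it arise the fibroblasts of the lamina propria next to the epithelium, the smooth muscle that moves urine by peristalsis and an outer adventitia. SHH and WNT ligands secreted by the epithelium act on these cells. TBX18 is required for the mesenchyme to become a ureteric one, and TBX2 and TBX3 act in the response to SHH. TSHZ3 and SOX9 act on myocardin, the co-activator that switches on smooth muscle genes. TCF21 is a basic helix-loop-helix factor of visceral mesenchyme, and TBX20 is best known from the heart. PPARG, the nuclear receptor deleted in the mutants, is made in the ureteric epithelium. The comparison asks how RNA of mesenchymal regulators stood when the receptor was removed from the neighbouring epithelium.

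Every value below was read from a probe of 60 bases. The last 30 bases of the probe used for each gene are printed, although the signal depends on all 60. Capitals mark AATAAA, the hexamer that directs cleavage and polyadenylation when it stands near the end of a transcript.
Tbx18: tctgaggtatctatagcAATAAAggcttag
Tbx2: aaatAATAAAaacgctatcatgcgatttga
Tbx3: agggacttggttcaaacgaccatgaaaggc
Tbx20: gcatttctcttaaaaacccattgtgagtgg
Tshz2: aaagctattttgcatctgttgagcccaatg
Tshz3: gtgctcaaagggttaagtctattcgaaaag
Sox9: catctttcgatttctgtataaaaacagacc
Tcf21: tgaaggaagtggtgaccgccaaccgcttgt

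The hexamer lay in the probes of Tbx18 and Tbx2, 2 of the 8 printed. It lay in the last 30 bases of 10.6% of all 39429 probes. No part of the results was tested against this feature. The share of G and C in the whole probe was 30% for Sox9 and 55% for Tcf21, the lowest and highest of the 8 probes, against a median of 41.7% over all probes. In the probe coordinates of the files (build mm9), the probe of Tbx18 lies at chr9:87599514-87599573 (minus strand), that of Tbx2 at chr11:85655391-85655450 and that of Tbx3 at chr5:120134511-120134570. The Tbx20 probe is at chr9:24527750-24527809 (minus strand), the Tshz2 probe at chr2:169713711-169713770 and the Tshz3 probe at chr7:37557872-37557931. Sox9 was read at chr11:112648809-112648868 and Tcf21 at chr10:22537563-22537622 (minus strand). All 8 are placed by the files in a transcript of the named gene. Whether they fall in coding or untranslated sequence was not analysed here.

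Which genotype carried which dye is in conflict between the sources, so no direction between genotypes is given. RNA A is the RNA in red (AlexaFluor647) on array 1 and in green (AlexaFluor555) on array 2, and RNA B is its partner. The labels make RNA A the control. The study's text and the deposited fold changes make it Pparg-cKO, because those fold changes ran with the ratio used here (Pearson r = 0.997 on either array, 15008 genes). All ratios are RNA A over RNA B on the log2 scale. A positive value thus means higher in control under one reading and higher in Pparg-cKO under the other. Dye and sex also changed together between the arrays, so their parts in any difference between arrays cannot be told apart.

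The targeted gene was read by a probe at chr6:115440213-115440272. For Pparg, RNA A gave a signal of 11295 against 7430 for RNA B in the female pools, and of 12888 against 7872 in the male pools. The Pparg-cKO ureters keep a transcript that lacks the deleted exons, and whether the probe lies within them was not analysed here, so this value checks no label. The sex labels held in all 4 pools. Xist, the X inactivation transcript, read 1651 and 1980 in the female pools and 2.43 and 3.06 in the male pools, while the Y-linked Ddx3y read 10.9 and 16.7 in female and 4396 and 4794 in male pools. The precision of every comparison was limited by the number of arrays.

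No member of the group differed between the RNAs in the same direction by as much as 1.5-fold on both arrays. Of the 7 members that reached a signal of 100 (in arbitrary intensity units) in the brighter RNA of both arrays, 0 passed this filter, where 0.773% of the 15008 genes at such a signal passed. Tbx3 passed 1.5-fold in opposite directions, which 0.86% of those genes did. limma, which moderates the variance of each gene across all genes, called 0 of the 8 genes at an adjusted p under 0.05, where it called 0.313% of the 21429 genes tested. The adjusted p was 1.00 for each of the 8. At an unadjusted p under 0.05 it also held 0 of the 8, the lowest being 0.0647 for Tbx2, against 810 of all genes tested (3.78%). For a single gene on 2 arrays, the smallest two-sided p that an exact sign-flip test allows is 0.5.

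**Figure D1:**
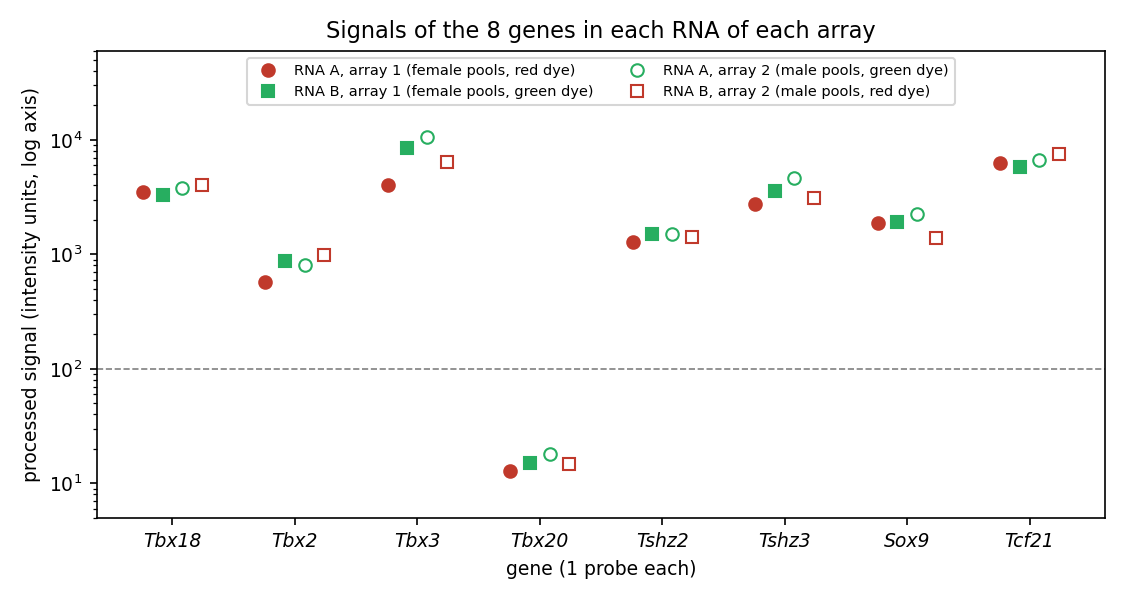
Processed signals (intensity units, log axis) of the 8 genes, 1 probe each, in RNA A (circles) and RNA B (squares) on array 1 (filled) and array 2 (open), coloured by dye. The dashed line is the intensity of 100. All 4 signals of Tbx20 lie under it, between 12.7 and 18.1, and the signals of the other genes lie above it.

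Tbx18 marks the ureteric mesenchyme from its origin. In the female pools RNA A gave a signal of 3526 and RNA B of 3270, and in the male pools 3801 and 4020. The RNAs did not separate, since RNA A was the brighter in female and the dimmer in male pools. The log2 ratio was 0.11 and −0.081, with a mean of 0.014 ± 0.13 (SD, n = 2 arrays). The 95% interval from limma ran from −0.44 to 0.47, so a mean change of up to that size in either direction is compatible with these arrays. This interval is not adjusted for the number of genes tested. Whether less RNA of a gene means fewer cells of a type or less RNA per cell cannot be told apart in such whole ureters.

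Tbx2 was the only one of the 8 genes that lay on the same side on both arrays. It encodes a transcriptional repressor of the T-box family. RNA A was the dimmer with a signal of 574 against 868 in the female pools, and with 814 against 981 in the male pools. The ratio was past 1.5-fold on array 1 (log2 −0.60, 1.51-fold) but not on array 2 (log2 −0.27, 1.21-fold). The mean was −0.43 ± 0.23 (SD, n = 2 arrays), with a limma interval from −0.90 to 0.033. This mean was among the low ones, at the 2.86th percentile of the genes tested. On array 2, 3 of the 4 spots were kept. Single spots ran from −0.66 to −0.56 on array 1 and from −0.33 to −0.24 on array 2, so that the difference between the arrays was wider than the spread among spots.

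Tbx3, its close paralogue, behaved otherwise. RNA A gave a signal of 4038 against 8547 for RNA B in the female pools, but of 10506 against 6372 in the male pools. RNA A was 2.12-fold dimmer in the female pools and 1.65-fold brighter in the male pools, which is the green dye both times. The log2 ratios of −1.08 and 0.72 gave a mean of −0.18 ± 1.28 (SD, n = 2 arrays), so the difference between the arrays was far larger than their mean. Divided by 2, this difference had a size at the 99.6th percentile of the genes tested. The spots agreed closely, with an SD of 0.0091 over 3 spots on array 1 and of 0.058 over 4 spots on array 2. Before the dye normalisation, the mean signals were 32696 in green and 14284 in red on array 1, and 43359 and 19339 on array 2. After subtraction of local background, red over green was then −1.20 and −1.16 on the log2 scale. Such values are not adjusted for the dye balance of each array. From array 1 to array 2 they fell for Tbx18 (−0.067 and −0.474), Tcf21 (−0.025 and −0.278), Tbx20 (−0.558 and −0.802) and Tshz2 (−0.531 and −0.712). They also fell for Tshz3 (−0.575 and −1.154) and Sox9 (−0.285 and −1.281), and rose for Tbx2 (−0.915 and −0.269). After normalisation, green was 2.12-fold brighter for Tbx3 on array 1 and 1.65-fold on array 2. The part of dye or sex in the Tbx3 ratios was not tested and cannot be told apart with these arrays.

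Tbx20 was dim. With its brightest probe, the signal was 12.7 for RNA A and 14.9 for RNA B in the female pools, and 18.1 and 14.9 in the male pools, well above background in all 4 channels but below 100. Its spots were scattered, from −0.47 to 0.076 on array 1 and from −0.13 to 0.60 on array 2, and overlapped between the arrays. The mean log2 ratio was 0.024 ± 0.36 (SD, n = 2 arrays). The other Tbx20 probes, at chr9:24544715-24544774 and chr9:24563177-24563236, were not well above background in either RNA. When the ratio was averaged over all 3 probes, the mean log2 ratio of Tbx20 was 0.29. That value was carried by the dim probe at chr9:24563177-24563236 (mean 0.86), while the other dim probe had a mean of −0.028.

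**Figure D2:**
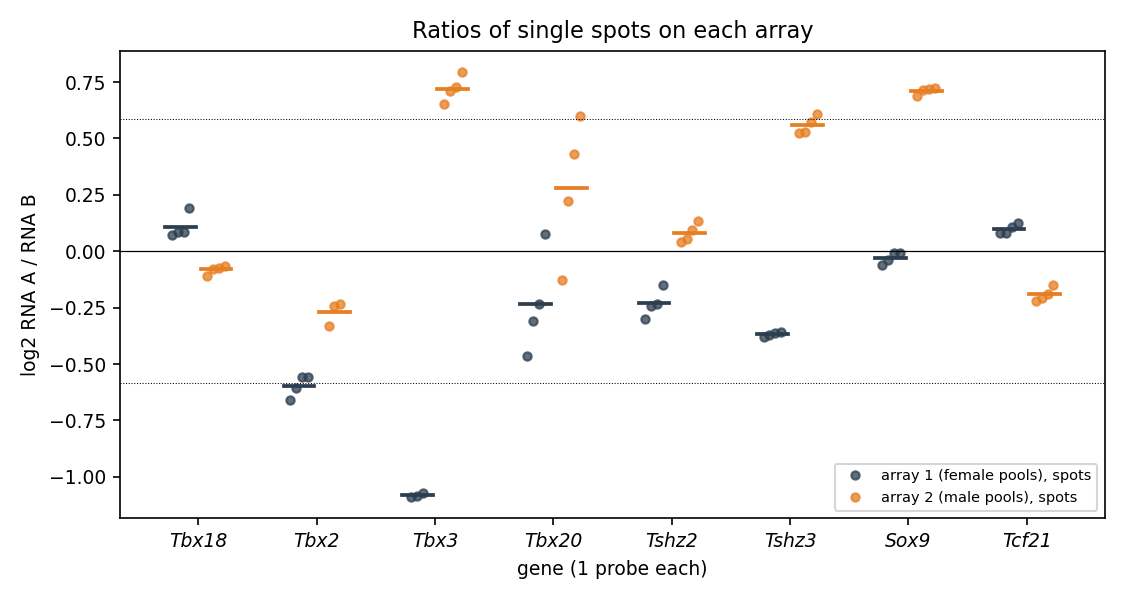
Log2 ratio of RNA A over RNA B at each kept spot (points) with the mean over spots (bars), for the probe used for each of the 8 genes, on array 1 (dark) and array 2 (orange). Dotted lines mark 1.5-fold. Only Tbx2 has all spots of both arrays on the same side of 0, and Tbx3 has its arrays farthest apart, at −1.08 and 0.72.

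The teashirt genes encode zinc finger proteins, and TSHZ3 is needed for smooth muscle to form in the upper ureter. For Tshz3 the female pools gave 2758 for RNA A and 3558 for RNA B, and the male pools 4599 and 3121. Green was again the brighter dye on both arrays, at 1.29-fold in the female and 1.47-fold in the male pools. In the male pools the fold passed 1.5 with the deposited fold changes (1.503) and with normexp and loess (log2 0.597). The log2 ratios were −0.37 and 0.56, with a mean of 0.096 ± 0.66 (SD, n = 2 arrays). Its difference between arrays stood at the 93.6th percentile of the genes tested.

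Tshz2 was read by a pair of probes, both well above background. The brighter gave 1293 for RNA A and 1518 for RNA B in the female pools, 1512 and 1428 in the male pools, and log2 ratios of −0.23 and 0.082. The other, at chr2:169711933-169711992, had signals of 217, 264, 317 and 244 in the same order and log2 ratios of −0.29 and 0.38. Both probes were thus brighter in green on both arrays, and they differed more from each other on array 2 than on array 1. The brighter probe gave a mean of −0.075 ± 0.22 (SD, n = 2 arrays), and the other a mean of the opposite sign, 0.045 ± 0.47 (SD, n = 2 arrays).

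Sox9 had the highest mean of the 8 genes. SOX9 is a high mobility group factor of cartilage, epithelial progenitors and early ureteric mesenchyme. The female pools gave close to equal signals of 1865 for RNA A and 1904 for RNA B, and the male pools gave 2272 and 1388. The difference came from the male pools, where RNA A was 1.64-fold brighter (log2 0.71, spots from 0.69 to 0.72). With −0.030 on array 1, the mean was 0.34 ± 0.52 (SD, n = 2 arrays), and the limma interval ran from −0.19 to 0.87. The mean lay at the 96.1th percentile of the genes tested. Because Sox9 is also a cartilage gene, 5 other cartilage genes with a tested value were read beside it. Their median log2 ratio stood at −0.25 in the female and 0.13 in the male pools, and the signals summed over all 6 genes were 15666 (RNA A) and 18261 (RNA B) in the female pools and 19231 and 18599 in the male pools. Col2a1, the main collagen of cartilage, had log2 ratios of −0.47 and 0.25, and Acan, dim with signals between 7.85 and 9.67, was well above background in green and not in red. Their part in the Sox9 value was not tested.

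For Tcf21, RNA A gave 6259 and RNA B 5847 in the female pools, and 6631 and 7571 followed in the male pools. Like Tbx18, it was slightly brighter in red on both arrays. The mean log2 ratio was −0.047 ± 0.20 (SD, n = 2 arrays), with a limma interval from −0.51 to 0.42. Both genes had ratios below 1.2-fold on both arrays.

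**Figure D3:**
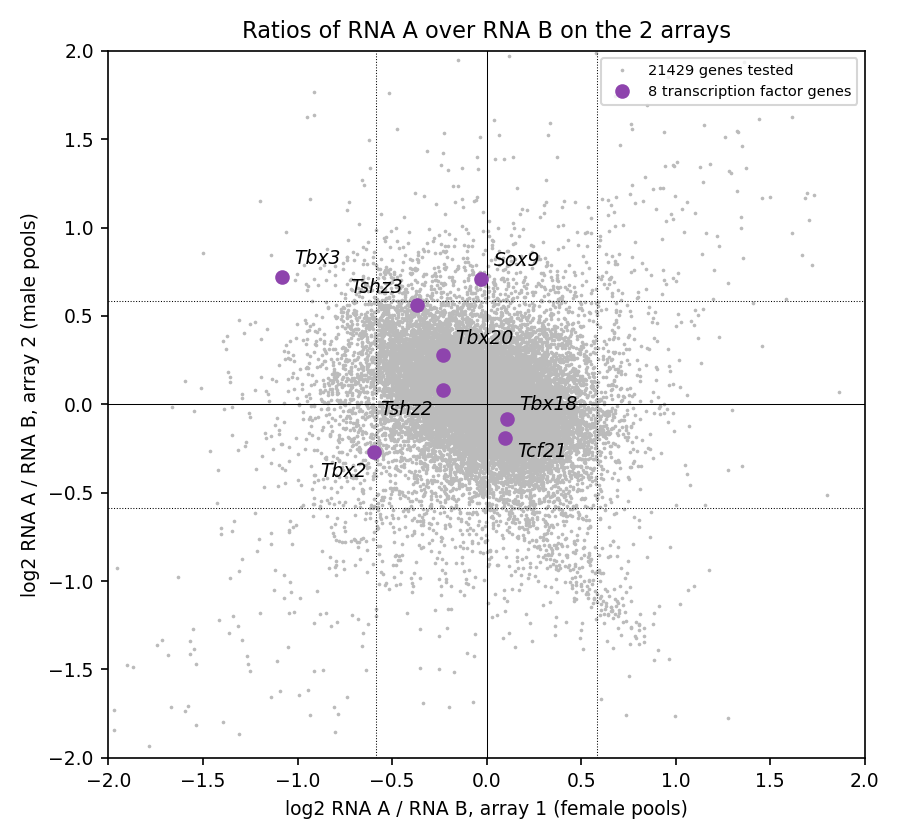
Log2 ratio of RNA A over RNA B on array 1 (female pools, horizontal) against array 2 (male pools, vertical) for the 8 genes (purple) and all 21429 genes tested (grey); 36 genes lie outside the axes. Dotted lines mark 1.5-fold; 5 of the 8 genes lie in the upper left corner, where green was brighter on both arrays, 2 in the lower right and Tbx2 in the lower left.

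Seen together, 5 of the 8 genes (Tbx3, Tbx20, Tshz2, Tshz3 and Sox9) were brighter in green on both arrays, 2 (Tbx18 and Tcf21) were brighter in red on both, 1 (Tbx2) was lower in RNA A on both and 0 were higher in RNA A on both. Of all genes tested, 32.6% were brighter in green on both arrays, 28.4% in red, 17.4% were lower in RNA A and 21.6% higher. The median ratio of the 8 genes was −0.23 on array 1 and 0.18 on array 2, against −0.00038 and 0.025 over all genes tested. The median of their means was −0.016, against 0.0067. Across all genes tested, the ratios of one array ran against those of its dye swap (Pearson r −0.055, Spearman rho −0.249; −0.191 and −0.376 over the 15008 genes with a signal of 100), as a description over genes that are not independent replicates. The signs of each of the 8 genes on both arrays were the same with normexp and loess, loess alone, median centring and the deposited fold changes.

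Genes with the most similar pair of ratios were named for each of the 8, by distance in the plane of the 2 arrays. Tbx3 had the emptiest surroundings, with 2 genes within 0.1 of it on both arrays. These were Ddr1, a collagen receptor (−1.01 and 0.70), and Itgb4, an integrin subunit of epithelial anchoring complexes. Around Sox9 there were 66 such genes, the nearest being Id1, an inhibitor of basic helix-loop-helix factors, and the transcript BY723733. Tbx2 had 84, with Rai1 and H2-DMb1 nearest, and Tshz3 had 182, with Col4a6 and Garem2 nearest. Tbx20 (Rbm42 and the transcript TC1614033, 934 genes), Tshz2 (Nadk2 and Trim62, 1288), Tcf21 (Gbp10 and Epc2, 1432) and Tbx18 (Gm8378 and Erlin2, 2180) lay in the dense centre, where a pair of ratios singles out no gene. These likenesses rest on 2 arrays.

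Other transcription factors of the mesenchyme were also mostly brighter in green. Of 20 with a tested value, 15 were so on both arrays (14 to 16 under the 4 other scalings), against 32.6% of all genes tested. In RNA A, 2 were lower and 2 higher on both arrays, and 0 passed the filter or limma. The median log2 ratio of the 20 stood at −0.21 in the female and 0.23 in the male pools, and that of their means at −0.0062. Foxf1, a forkhead factor that relays SHH in the ureteric mesenchyme, had the lowest mean. RNA A gave 1360 against 2847 for RNA B in the female pools and 2589 against 3352 in the male pools, with log2 ratios of −1.07 and −0.37 (limma adjusted p = 0.708). It was the only one of the 20 at an unadjusted p under 0.05. Foxd1, a forkhead factor of the renal stroma, had log2 ratios of −0.30 and 0.26.

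Of 19 further members of the same gene families, 13 were well above background in the same RNA of both arrays and 6 had signals of at least 100. Brachyury (T), Eomes, Tbx5, Tbx19, Tbx21 and Msc were not. Of the 13, 8 were brighter in green on both arrays, against 32.6% of all genes tested. Among them 0 passed the filter, 1 passed 1.5-fold in opposite directions and 0 passed limma. This 1 gene was Sox4, singled out after its values were seen, with log2 ratios of −0.63 and 0.68. Tbx4 had the lowest mean, −0.58, with an unadjusted limma p of 0.038, and Tbr1 the highest, 0.26.

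Shh encodes the ligand that the epithelium sends to the mesenchyme. Its RNA A signal was 36.5 against 75.5 for RNA B in the female pools, and 33.7 against 87.3 in the male pools. It was lower in RNA A on both arrays, with log2 ratios of −1.05 and −1.37 and a mean of −1.21 ± 0.23 (SD, n = 2 arrays; limma adjusted p = 0.0748). The study's in situ hybridisation, which is separate from the arrays, describes Shh as lost in the mutant epithelium, and under that description RNA A would be Pparg-cKO, against the labels. The array values were not used to assign a genotype. Shh did not reach a signal of 100 and so could not pass the filter under the reading of the threshold used here. The study, with its own intensity threshold of 100 and 1.5-fold, lists Shh among the genes decreased at this stage and at a later one. Why the 2 readings differ was not analysed. Of the 9 genes of SHH signalling, 3 were lower in RNA A on both arrays, against 17.4% of all genes tested. The same 3 had an unadjusted limma p under 0.05, against 3.78% of all genes tested. Besides Shh they were Gli1, an effector of the pathway (−0.60 and −0.42), and Hhip, a target that binds the ligand (−0.57 and −0.70), both named after their values were seen. Ptch1, the receptor and a direct target, had 0.021 on array 1 and −0.86 on array 2. Bmp4, a ligand made in the mesenchyme, had −0.33 and 0.11, and Gli3 had the highest mean, 0.082. With 0 of 9 past the filter or limma, the median of the means was −0.27, against 0.0067 over all genes tested.

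Genes of WNT signalling came next. Among 9 ligands, targets and modulators, 6 were brighter in green on both arrays, against 32.6% of all genes tested. In RNA A, 1 was lower and 2 higher on both arrays. None passed the filter or limma, 0 had an unadjusted limma p under 0.05, and the median of the means was −0.019. Wnt7b, an epithelial ligand, had the lowest mean (−0.34, from −0.74 and 0.070), and Wnt9b, also epithelial, the highest (0.43), with signals between 15.2 and 28.3.

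Smooth muscle genes, the differentiation products of the mesenchyme, were lower in RNA A on both arrays in 11 of 13 cases (11 to 12 under the 4 other scalings), against 17.4% of all genes tested. None passed the filter and limma called 0, while 10 had an unadjusted limma p under 0.05, against 3.78% of all genes tested. Their median log2 ratio stood at −0.43 in the female and −0.64 in the male pools. Myocd, which encodes myocardin, gave 96.3 for RNA A and 139 for RNA B in the female pools and 127 and 197 in the male pools, and its log2 ratio averaged −0.58 ± 0.075 (SD, n = 2 arrays). Acta2, smooth muscle actin, had log2 ratios of −0.24 and −0.87. Myh11, the smooth muscle myosin heavy chain, had the lowest mean, −0.80, and Des, which encodes desmin, the highest, −0.12. The 8 transcription factors had no such shared side, with 1 of 8 lower in RNA A on both arrays. The difference between these lists was not tested.

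Fibroblast and lamina propria genes were close to 0 as a group. Of 12, 2 were lower and 1 higher in RNA A on both arrays, 0 passed the filter or limma, and 0 had an unadjusted limma p under 0.05. Their means ran from −0.22 for Dpt, a matrix protein, to 0.22 for Aldh1a3, an enzyme that makes retinoic acid. Col1a1, named after its values were seen, passed 1.5-fold in opposite directions (−0.80 and 0.67). It was brighter in green on both arrays, like Tbx3.

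**Figure D4:**
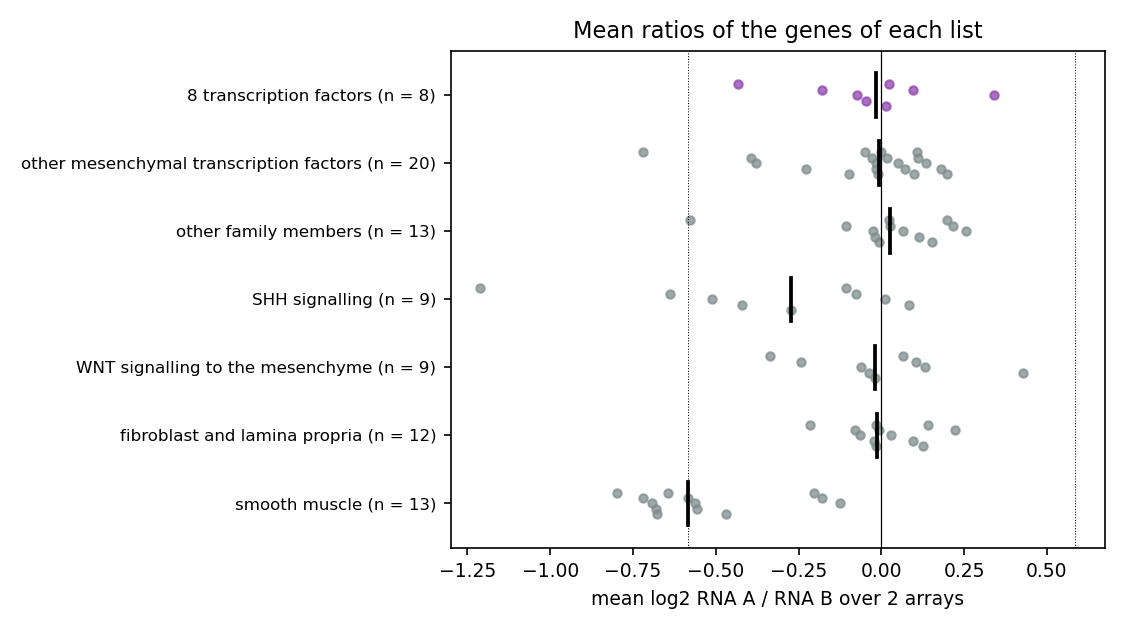
Mean log2 ratio of RNA A over RNA B over the 2 arrays for each tested gene (points) of the 8 transcription factors and of 6 other lists, with the list median (bars). Dotted lines mark 1.5-fold. The medians of the transcription factor lists, WNT and fibroblast genes lie between −0.019 and 0.026, that of SHH signalling at −0.27 and that of smooth muscle at −0.58.

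The labelled tissue was checked against markers of the cells a dissected ureter holds or may carry. Epithelial, endothelial and glial markers were present, as was the muscle wall. All 4 muscle wall markers were lower in RNA A on both arrays, with signals that summed to 72674 for RNA A against 90213 for RNA B in the female pools and to 66004 against 117892 in the male pools. Tbx2 lay on the same side, and their part in its value was not tested. The 8 epithelial markers had a median of −0.45 on array 1 and 0.0017 on array 2, with summed signals of 63895 against 94076 and of 82157 against 87507. Of 9 nephron and podocyte markers, Slc12a1 and Umod were not well above background in any channel, and Nphs1 was so in green and not in red. The other 6 had a median of −0.33 and 0.038, and the 9 summed to 5192 for RNA A and 6760 for RNA B in the female pools and to 4452 and 4001 in the male pools. The 3 renal stroma markers summed to 5771 and 6948 in the female and to 7300 and 6289 in the male pools, which is brighter in green both times, like Tbx3 and Tshz3. Of the gonad and adrenal markers, 4 had values, with summed signals between 130 and 198, and Amh was not well above background.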

How the data were processed

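RNA of pooled E16.5 ureters was compared on 2 dual-colour Agilent arrays that shared 1 slide and 1 scan. According to the file headers, the authors' deposited processed intensities come from Feature Extraction 10.7.3.1, with background subtracted and the dyes normalised within each array by a linear step and LOWESS. Ratios of dim probes, and of probes that favour a dye, therefore hang on this software. The deposited log10 ratio served to check the dyes. The signed fold changes that the authors deposited per probe, kept here as a score because no direction is stated, were an alternative, as were the deposited mean and local background intensities.

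Without control spots (17263 per array) and flagged spots (5705 and 5579), log2 signals were averaged per probe. RefSeq named 28328 of 39429 probes and the rest kept the name in the file. The probe with the highest mean log2 signal stood for its gene. Ratios are RNA A over RNA B, with mean ± SD of both arrays.

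The filter, after the study's methods, asked for 1.5-fold in one direction on both arrays and an intensity of 100 in the brighter RNA on both, which is one reading of the threshold. limma 3.58.1 (lmFit, eBayes, R 4.3.3) was fitted to both log2 ratios of each of 21429 genes, those well above background in the same RNA on both arrays, with 1 residual degree of freedom and Benjamini-Hochberg adjustment at 0.05. Other tools were matplotlib 3.10.9 for plots and, for reading, data.table in version 1.17.8.

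The 8 genes and the lists were chosen with earlier results of these data known. Named are the 8 genes, the highest and lowest mean of each of 6 lists, genes of the lists past the filter, Pparg, Shh, Ptch1, Myocd, Acta2, Bmp4, Foxf1, Foxd1, Col2a1, Xist, Ddx3y and, for each of the 8, its nearest pair of genes; 1 gene under this rule is not reported here. Alternatives were normexp (offset 50) with loess, loess, median centring, the deposited fold changes, other rules for probes, spots, intensity and fold, limma without the filter on dim probes, with an intensity trend or on separate channels, and leaving out each array.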

Additional observations from a re-analysis of the deposited data

Results flagged for a closer look

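Opposite ratios in female and male pools, of at least 1.2-fold each and with a signal of at least 100, were seen in 8 of the genes named in the text. With 1 array per sex the difference was not tested, and dye and sex cannot be told apart in it. The log2 ratio on the array of female pools minus that on the array of male pools was −1.80 for Tbx3, from −1.08 and 0.72. For Tshz3 the difference was −0.93, from −0.37 and 0.56, and for Foxd1 it was −0.56, from −0.30 and 0.26. For Col1a1 and Sox4, which were named because their ratios were opposite, it was −1.48 and −1.31. For the neighbours of Tbx3 and Tshz3 in the plane of ratios, which were named for their likeness to these genes, it was −1.72 (Ddr1), −1.74 (Itgb4) and −0.93 (Col4a6).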

How the results depend on the processing

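With 2 arrays of 1 pool per genotype, each gene has a single residual degree of freedom of its own. The limma intervals also draw on the variance of all genes, for 8.59 degrees of freedom in total. For Tbx2, Tbx3, Tshz3 and Sox9 these intervals leave room for changes past 1.5-fold. For the rest of the 8 they stay within 1.5-fold, which depends on the variance drawn from other genes and does not exclude larger changes. Each of the 8 genes kept the sign of its mean under 6 alternatives, and limma called 0 of them under each. Under normexp with loess, 1 of the 8 had an unadjusted p under 0.05. The alternatives were the other scalings, the deposited table, the mean over the probes of a gene and flagged spots kept. With the mean over probes, Tbx20 changed sign on each array (0.67 and −0.097), though not in its mean. Read singly, the other Tshz2 probe (mean 0.045) and a dim Tbx20 probe (−0.028) had the opposite sign to the probe used. All 6 alternatives used both arrays. When each array was left out in turn, only Tbx2 kept its sign both times. At 1.2-fold in place of 1.5-fold, 1 of the 8, Tbx2, passed the filter, by construction. With either array left out, 2 passed, Tbx2 and Tbx3 on array 1 alone and Tbx3 and Sox9 on array 2 alone. The median ratio was then −0.23 to 0.18. Of the 82 genes with values in the other lists, 0 passed the filter. With normexp and loess 3 passed (Cnn1, Hhip and Synpo2), and 1, Synpo2, with loess alone or with the deposited table, all lower in RNA A; the cause was not tested. With an array left out, 10 to 13 passed. The share over all genes is not given for any of these changed settings, so such counts of the 8 genes and of the lists are description only. A limma fit with an array left out has no residual degrees of freedom and was not run. Each ratio sets the pools of an array against each other, so the fit of the ratios already pairs them.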
